A study of Mus musculus with 20 samples.

Results

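Cycling cells of the embryonic mouse habenula were taken as the wells, on the plates of E11 to E18, in which at least 4 of 7 transcripts of cell division had at least 1 count. The 7 transcripts were Mki67 (the proliferation antigen Ki-67), Top2a (a topoisomerase that untangles replicated chromosomes), Cenpf and Cenpa (centromere proteins), Ube2c (a ubiquitin-conjugating enzyme of the protein degradation that ends mitosis), Cdca3 (a trigger of mitotic entry) and Ccnb1 (cyclin B1). A well was kept first if it had 1000 or more counts (leaving aside spike-in RNA and mitochondrial genes), 500 or more genes, and no more than 20% of counts from mitochondria. The rule found 98 cycling wells among 2102 kept wells on 9 plates, of 3729 kept wells in the whole series. The wells were thus chosen by their measured counts of these 7 transcripts, so differences in level between cycling and other wells are described with no test. Tests were made between stages, and of whether the change with day differed between cycling and other wells.

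The habenula is a paired nucleus of the epithalamus, at the dorsal edge of the diencephalon. All 9 plates came from mice of the Brn3a-tauLacZ line, with no treatment named. Brn3a, now called Pou4f1, is a transcription factor of habenula neurons. There were 2 plates at each of E11, E13, E15 and E18 and 1 plate at E12, labelled as habenula. Single cells were read with CelSeq2, a plate method that tags transcripts with unique molecular identifiers (UMIs) of 6 bases. Whether the mice carried the reporter, how the cells were sorted, and whether the plates of a stage came from different litters is not stated in the labels. P-values therefore measure only the spread between plates, which may be technical. All plates share the line, and 5 plates were sequenced per run without a record of which, so run and stage cannot be told apart.

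Dividing cells of the early neural tube are neuroepithelial cells and radial glia, which line the ventricle, express Sox2, and are kept from becoming neurons by Notch signalling through Hes5 and Hes1. They give rise first to neurons and later to glia, and NFI transcription factors are part of that second phase. Transcripts of G2 and mitosis are switched on together late in the cell cycle, through a short promoter element named CHR that binds the DREAM, B-Myb and FOXM1 complexes, and through CCAAT boxes that bind NF-Y.

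The promoters of 4 of the 7 transcripts are shown, 3 that hold both of these elements and that of Ccnb1, which held CCAAT matches and no match of the CHR type. Each runs 5′ to 3′ on the strand of its gene, from 250 bases before to 50 bases after the transcript start, and is credited to RefSeq (GRCm38.p6). Capitals mark matches, on either strand, to TTTGAA or TTCGAA (the CHR type) and to CCAAT. Mki67 lies at chr7:135716330-135716629 on the minus strand, Ube2c at chr2:164769679-164769978 on the plus strand, Ccnb1 at chr13:100786437-100786736 on the minus strand, and Cdca3 at chr6:124829926-124830225 on the plus strand.
Mki67: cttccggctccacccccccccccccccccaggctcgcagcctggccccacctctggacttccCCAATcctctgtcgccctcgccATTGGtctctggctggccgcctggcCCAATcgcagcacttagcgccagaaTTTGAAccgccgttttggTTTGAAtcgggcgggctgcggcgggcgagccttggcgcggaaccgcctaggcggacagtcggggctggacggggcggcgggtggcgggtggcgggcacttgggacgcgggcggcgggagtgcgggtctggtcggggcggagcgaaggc
Ube2c: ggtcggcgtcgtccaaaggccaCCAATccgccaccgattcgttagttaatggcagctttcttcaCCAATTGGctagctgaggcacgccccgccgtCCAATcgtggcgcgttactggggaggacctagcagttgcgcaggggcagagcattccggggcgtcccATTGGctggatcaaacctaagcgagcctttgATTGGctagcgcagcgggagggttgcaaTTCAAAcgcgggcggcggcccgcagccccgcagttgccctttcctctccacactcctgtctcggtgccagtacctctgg
Ccnb1: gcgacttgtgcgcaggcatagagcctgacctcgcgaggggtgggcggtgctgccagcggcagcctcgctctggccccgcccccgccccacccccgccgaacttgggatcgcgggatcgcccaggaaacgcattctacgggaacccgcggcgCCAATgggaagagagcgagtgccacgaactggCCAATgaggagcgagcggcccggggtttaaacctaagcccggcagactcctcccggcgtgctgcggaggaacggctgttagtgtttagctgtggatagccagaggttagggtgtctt
Cdca3: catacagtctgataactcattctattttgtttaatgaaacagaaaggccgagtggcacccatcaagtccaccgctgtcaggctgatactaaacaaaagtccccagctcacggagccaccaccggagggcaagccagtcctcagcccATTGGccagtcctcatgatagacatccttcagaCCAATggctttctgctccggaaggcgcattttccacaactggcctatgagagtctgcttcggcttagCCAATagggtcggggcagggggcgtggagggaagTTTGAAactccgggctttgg
Mki67 held 2 matches of the CHR type and 3 of CCAAT, Ube2c 1 and 6, Ccnb1 0 and 2, and Cdca3 1 and 3. Of those not shown, Top2a held 4 and 6, and Cenpf and Cenpa 1 and 2 each. Of 32851 RefSeq mouse promoters of this length, 19.2% held a CHR-type match, 37.4% a CCAAT match and 7.52% both. For the 70 genes of a list of G2 and mitosis genes outside the rule, 62 promoters of 55 symbols were found, and 71.0%, 72.6% and 59.7% of them did. A match is a string of letters and not a measured binding site.

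Cycling wells were spread unevenly over the plates. E11 plate 1 held 17 of 309 kept wells (5.50%, exact 95% Clopper-Pearson interval 3.24% to 8.66%) and E11 plate 2 held 8 of 345 (2.32%, 1.01% to 4.52%). E12 held 13 of 291 (4.47%, 2.40% to 7.52%), and E13 plate 1 held 9 of 153 (5.88%, 2.72% to 10.9%). E13 plate 2 stood apart with 38 of 137 (27.7%, 20.4% to 36.0%), and its interval overlapped that of no other plate. At E15 there were 2 of 188 wells on plate 1 (1.06%, 0.129% to 3.79%) and 0 of 302 on plate 2, a count that allows up to 0.993% by 3 counts of the total and 1.21% by the exact interval. At E18 there were 11 of 267 on plate 1 (4.12%, 2.07% to 7.25%) and 0 of 110 on plate 2, which allows up to 2.73% and 3.30% by the same measures. Means over plates were 3.91% ± 2.25 (SD, n = 2) at E11, 16.8% ± 15.5 at E13, 0.532% ± 0.752 at E15 and 2.06% ± 2.91 at E18. The 2 plates of E13 lay further apart than any 2 of these means. Intervals cover counting error only.

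**Figure D1:**
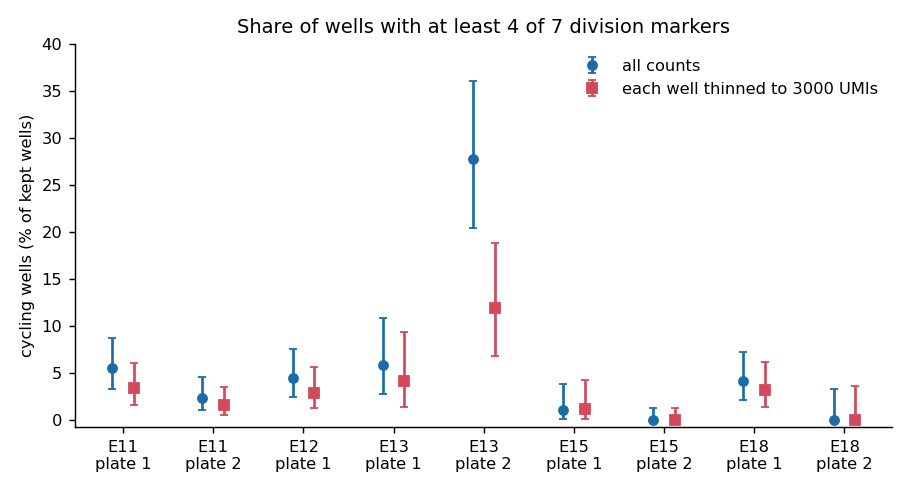
Share of kept wells with at least 4 of the 7 division transcripts, in percent, on each of the 9 plates, with all counts (circles) and with each well thinned to 3000 UMIs (squares); bars are exact 95% binomial intervals. E13 plate 2 stands at 27.7% with all counts and at 11.9% when thinned, above every other plate both ways, and E15 plate 2 and E18 plate 2 are at 0.

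Depth moved the shares, with E13 plate 2 still the highest. When wells were thinned to 3000 UMIs, its interval (6.82% to 18.9%) overlapped that of E13 plate 1 (1.34% to 9.31%). With each well thinned to 3000 UMIs and shallower wells left out, the shares were 3.36% and 1.53% at E11, 2.91% at E12, 4.10% and 11.9% at E13, 1.20% and 0% at E15, and 3.20% and 0% at E18. Summed over the cycling wells, a plate gave from 86913 counts at E18 to 667115 on E13 plate 2, apart from 15796 in the 2 wells of E15. The unspliced share of their counts was 17.9% and 18.2% at E11, 18.8% at E12, 10.7% and 13.9% at E13, 17.4% at E15 and 18.5% at E18. In the other kept wells of those plates it was higher each time, at 20.9% and 19.3%, 21.7%, 15.5% and 18.6%, 19.0% and 23.0%. It was lowest on both E13 plates, and its part in the stage differences below was not tested. The same 384 well barcodes serve every plate, so shared barcodes name positions and not shared cells.

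E13 plate 2 also carried signs of RNA outside its cells of origin. Outside the wells high in those lineages, 96.2% of its kept wells had a count of Ttr, the transthyretin transcript of the choroid plexus, and 66.7% one of Rgs5, a pericyte transcript, while at E11 at most 0.580% of such wells had either. The next highest plates were E18 plate 1 for Ttr, at 52.4%, and E13 plate 1 for Rgs5, at 12.9%. Top2a had a count in 41.4% of its wells that were not called cycling, against 0.662% to 13.2% on the other plates. Of its 38 cycling wells, 16 had less than 1000 counts per 1000000 counts (CPM) of the 7 markers together, against 0 or 1 on each of the other plates. For genes and lists named in the stage comparison of the core wells below, calls lost without this plate are given.

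The rule is a threshold on a graded signal. In the 29 wells with 3 of the 7 markers, just outside it, the markers summed to a median of 284 CPM and the list of G2 and mitosis genes outside the rule to 2270 CPM. In the 20 wells with 4 markers, just inside, the medians were 993 and 8273 CPM. They rose on to 1416 and 9669 CPM in the 18 wells with 5 markers, 2639 and 12201 CPM in 18 wells with 6, and 4927 and 17404 CPM in 42 wells with all 7. Of the wells with 3 markers, 14 were on E13 plate 2.

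Most but not all cycling wells carried a neural progenitor profile. Summed lists of other lineages set 31 of the 98 apart, at levels chosen after seeing the data. A list of vascular and mesenchymal genes stood at 5000 CPM or more in 17 wells, 13 of them on E13 plate 2, with the next well below at 2350 CPM. An ependymal and choroid plexus list, led by Ttr, stood at 10000 CPM or more in 8 wells, 6 of them on E13 plate 2, with the next at 6262 CPM. A neuron list stood at 10000 CPM or more in 5 wells, with the next at 9155 CPM, and a list of microglia and blood genes marked 1 well, on E18 plate 1, at 17524 CPM against 634 CPM for the next.

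The other 67 wells are called the core cycling wells. There were 16 and 7 of them at E11, 10 at E12, 7 and 16 at E13, 2 on E15 plate 1 and 9 on E18 plate 1. Sox2, the transcription factor of neural stem cells, had a count in 64 of the 67 (95.5%), against 26.2% of the other 2004 kept wells. By plate it was seen in 4.45% and 4.75% of the other wells at E11 but in 75.4% of those on E18 plate 1, so Sox2 sets the core wells apart less at that stage. In the vascular and mesenchyme-high wells Sox2 summed to 41.3 CPM, against 652 CPM in the core wells. The label of progenitor thus holds for the core wells by Sox2 and holds less for the 17 vascular-type wells. The 8 choroid plexus-type wells were set apart by their list alone. Of the core wells, 37 had Sox2 without 2 or more of 7 neurogenic genes of the intermediate progenitor list, and 27 had both. The latter were 7 of 16 and 2 of 7 at E11, 1 of 10 at E12, 3 of 7 and 10 of 16 at E13 and 4 of 9 at E18. The part of this mix in the stage differences below was not tested.

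**Figure D2:**
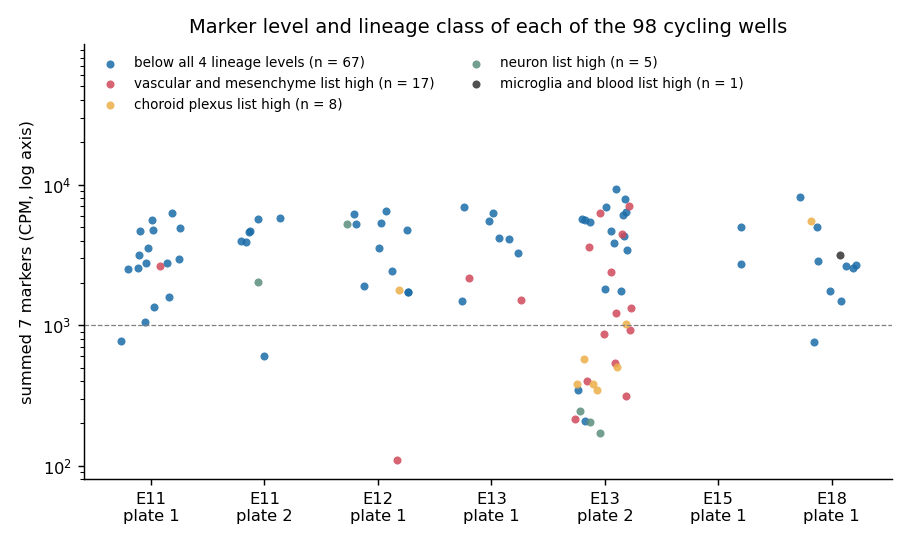
Summed level of the 7 rule markers in CPM (log axis) for each of the 98 cycling wells, by plate, coloured by the lineage list that stood high in the well; the dashed line is at 1000 CPM. The 17 vascular and mesenchyme-high, 8 choroid plexus-high, 5 neuron-high and 1 microglia-high wells lie mostly on E13 plate 2, where 16 of 38 wells fall under the line.

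Against the other wells of the same plates, cycling wells were high in mitotic, chromatin and radial glia transcripts and low in neuron transcripts. The difference is set by the rule and is given as a description over the 6 plates with at least 5 cycling wells. It takes in all their cycling wells and not the core alone. The core wells hold 138658 of the 260190 counts summed at E12 and 254709 of 667115 on E13 plate 2. Over the 9645 genes of at least 20 CPM, the median log2 ratio of CPM (with 10 CPM added to both) was 0.06, and 1335 genes were higher and 1389 lower on all 6 plates. The G2 and mitosis list outside the rule had a median of 2.94 (0.36 SD over plates), and 65 of its 67 measured genes were higher on all 6. S phase and replication genes had a median of 1.43, with 32 of 44 higher on all 6, and histone genes 1.34, with 10 of 13.

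The highest ratios outside the rule belonged to genes of the division machinery. Ccna2 (cyclin A2) stood at 276, 304, 208, 420, 259 and 322 CPM on E11 plates 1 and 2, E12, E13 plates 1 and 2 and E18 plate 1, against 4.67, 4.81, 4.01, 5.47, 30.4 and 4.55 CPM in the other wells. Every plate of cycling wells lay above every plate of other wells, and the other wells of E13 plate 2 were the highest of theirs. Its median log2 ratio was 4.35, and those of Cdk1 (the kinase of mitotic entry), Tpx2, Prc1 and Cenpe (spindle proteins), Hist1h2ap (a replication histone) and Hmgb2 (a chromatin protein) ran from 4.34 down to 4.14. Cdc20, Ect2, Knstrn, Nusap1, Pclaf and Cdca8, further genes of mitosis and replication, had ratios of 4.01 to 3.81 and were also higher on all 6 plates.

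Progenitor genes were among the top 20 as well, but not on every plate. Hes1, a Notch target, stood at 386, 259, 742, 271 and 192 CPM from E11 to E13 against 3.97 to 79.8 CPM in other wells, and at 57.5 CPM on E18 plate 1 against 88.9 CPM. Hmga2, an architectural chromatin protein of young stem cells, had a median ratio of 4.06. On E18 plate 1 it had 0 counts in cycling wells, which allows up to 34.5 CPM, against 20.7 CPM in the other wells, so no direction can be read there. Adgrv1, Fabp7 and Zfp36l1 were higher in cycling wells on 5 of 6 plates with E18 the exception, while Sox2 and Id3 were higher on all 6. The radial glia list had a median ratio of 2.20, with 9 of 22 genes higher on all 6 plates.

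Neuron genes went the other way, with a median of -2.41 and 15 of 15 lower on all 6 plates. The lowest ratios were those of Snap91 (-3.40), Onecut2 (-3.28), Mapt, Mgat4c, Kcnma1, Stmn2, Rtn1, Cacna2d1, Pou4f1 (-2.86) and St6galnac5. On E18 plate 1 Cacna2d1 (840 against 654 CPM) and St6galnac5 (80.5 against 78.5 CPM) were higher in cycling wells. The rest were lower on all 6 plates, Kcnma1 only slightly on E13 plate 2 (331 against 364 CPM). Pou4f1 stood at 118, 44.7, 108, 43.7, 58.5 and 11.5 CPM in cycling wells and at 874, 805, 633, 485, 285 and 154 CPM in the others. The intermediate progenitor list, of genes between stem cell and neuron, did not stand out, with a median of -0.37 and 0 of 14 genes higher on all 6 plates.

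Changes between stages were tested on counts summed over the cycling wells of each plate, with the 6 plates of at least 5 cycling wells in 1 fit. From E11 to E13, 387 of 7308 genes (5.3%) had an edgeR adjusted p under 0.05, with 237 higher (3.24%) and 150 lower (2.05%). DESeq2 called 52 genes from the same sums. With 1 plate left out edgeR called from 253 (without E11 plate 2) to 648 (without E13 plate 1). In the core cycling wells 300 of 4924 passed (6.09%; 134 higher, 2.72%, and 166 lower, 3.37%). Genes called in both numbered 187, all in the same direction, which is 48.3% of the first and 62.3% of the second list. Of the 387, 113 were not tested in the core wells. Without E13 plate 2 the counts were 292 of 4999 genes (5.84%; 3.12% higher and 2.72% lower) and, in core wells, 118 of 4013 (2.94%; 1.3% higher and 1.64% lower).

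In the core wells, Hes5, Pax3, Crabp1, Ccnd2 and Hells were higher at E11, and NFI factors, Rspo3, Spry1 and Hmgb2 were higher at E13. Of 263 genes tested from all marker and pathway lists, 56 passed (21.3%, against 6.09% of all genes), 23 higher (8.75%) and 33 lower (12.5%) at E13. The lists were chosen with earlier results of these data known, so this share is a description. Counts by list below stand against 2.72% of all genes higher and 3.37% lower. Shares higher and lower were 9.09% and 36.4% for radial glia, 50.0% and 16.7% for gliogenic, and 10.0% and 50.0% for timing genes. They were 26.7% and 20.0% for FGF and SHH, and 20.0% and 6.67% for dorsal midline and Wnt genes. For Notch, S phase and dissociation response genes they were 0% and 30.0%, 0% and 20.0%, and 0% and 30.0%. Some genes are on several lists, such as Sox9 and Ptprz1 on both the radial glia and gliogenic lists. The shares of such lists are therefore not separate results. Leaving out each of the 6 plates in turn, 21 of these 56 passed every time: Crabp1, Pax3, Hes5, Id4, Hells, Fgfr3, Nrarp, Hist1h2ap, Sox9, Ccnd2 and Tcf7l2, which were lower, and Spry1, Nfix, Six3, Rspo3, Sparc, Nfia, Nfib, Hmgb2, Zic1 and H3f3a, which were higher. The core calls that did not pass over all cycling wells of these plates included Nfib, Nrarp, Notch3, Fabp7, Slc1a3, Prom1, Cdc20, Arl6ip1, Axin2, Barhl2 and Jun, and there the adjusted p was 0.0906 for Nfib and 0.411 for Nrarp.

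Hes5, the Notch effector of neuroepithelial cells, fell furthest among the Notch genes. It stood at 781 and 1152 CPM in core wells at E11 and at 721 CPM at E12. It then stood at 11.5 and 27.5 CPM at E13 and at 0 at E18, where a count of 0 allows up to 41.6 CPM. The E11 and E13 plates did not overlap, and the fall was -5.31 on the log2 scale (SE 0.42, edgeR adjusted p 4.2e-09). A count of Hes5 was seen in 13 of 16 and 6 of 7 core wells at E11, 6 of 10 at E12, 1 of 7 and 5 of 16 at E13, and 0 of 9 at E18. In the other kept wells it stayed between 3.65 and 65.3 CPM on all 6 plates. Hes5 lies on chromosome 4, 154960923 to 154962371, plus strand.

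Of 10 Notch pathway genes tested in the core wells, 3 passed, all lower (Hes5, Nrarp and Notch3), with a list median of -0.70 against 0.01 over all genes. Nrarp, a feedback inhibitor that Notch induces, went from 183 and 189 CPM to 22.9 and 51.0 CPM (log2 change -2.09, adjusted p 0.0055). Notch3, a receptor, went from 205 and 189 to 57.3 and 78.5 CPM (-1.46, adjusted p 0.0295) and passed only without E12 or without E18 plate 1. Its adjusted p was 0.0550 to 0.205 without each of the E11 and E13 plates. Hes1 did not pass, at 393 and 293 CPM against 287 and 220 CPM (adjusted p 0.392), as did Notch1 (adjusted p 0.214). Summed over the list, core wells held 2648, 2749 and 2939 CPM at E11 and E12 and 1009 and 1194 CPM at E13, while the other wells held between 901 and 1230 CPM on these 5 plates.

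**Figure D3:**
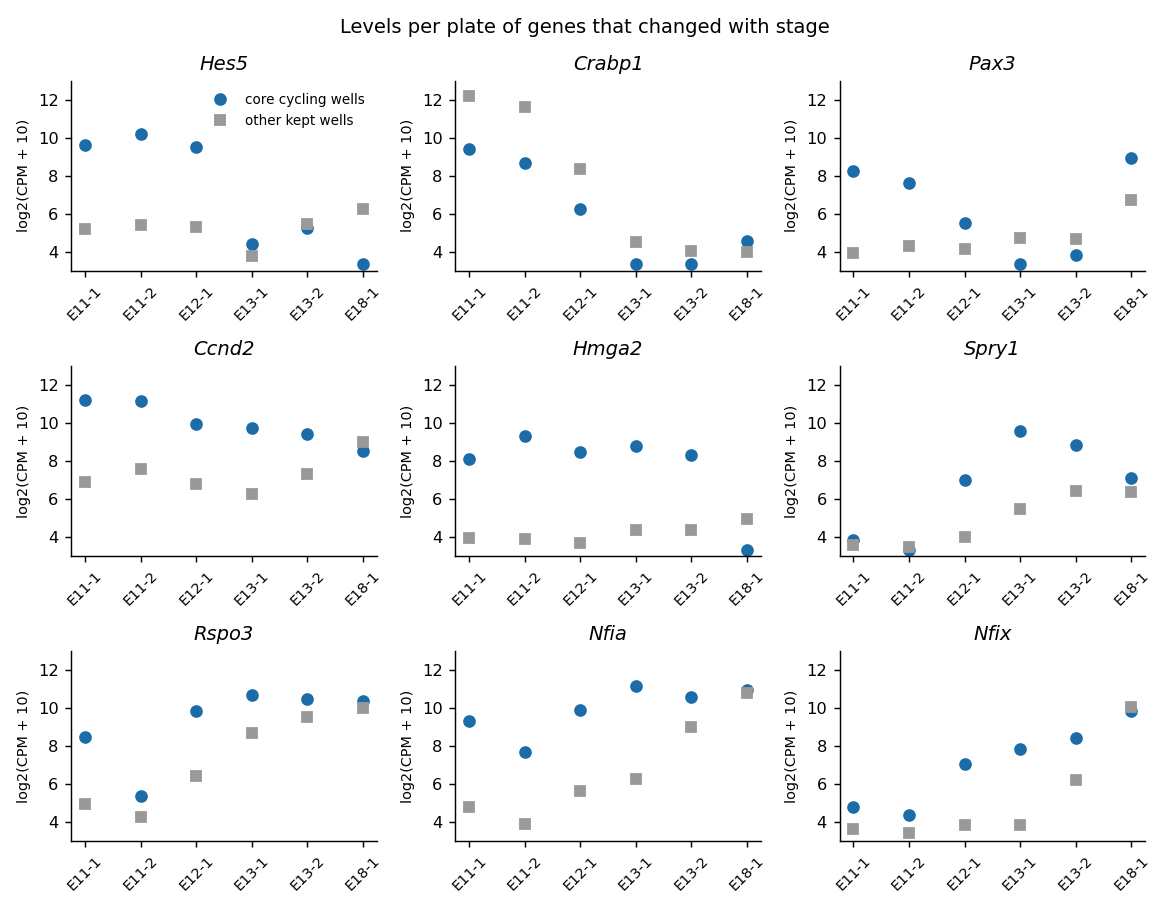
Level of 9 genes on each plate as log2(CPM + 10), in core cycling wells (circles) and in all other kept wells (squares). Hes5 in core wells is at 721 to 1152 CPM at E11 and E12 and at 27.5 CPM or less afterwards, Pax3 is low at E13 and back at E18, and Nfix and Nfia rise from E11 to E13.

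Radial glia genes split by stage. Of 22 tested in the core wells, 8 were lower and 2 higher at E13 (list median -0.87), and without E13 plate 2, 5 and 1. Pax3, a paired-box factor of the dorsal neural tube, stood at 295 and 189 CPM at E11, 36.1 at E12, 0 and 3.93 at E13 and 486 at E18. Summed over plates it had 84 counts at E11 and 1 at E13, a ratio of 89.9 (95% counting interval 15.7 to 3592, edgeR adjusted p 2.12e-06). It was seen in 7 of 16 and 3 of 7 core wells at E11 and 4 of 9 at E18, so its level comes from part of the wells.

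Id4, which blocks differentiation factors, went from 263 and 702 CPM to 45.9 and 31.4 CPM (log2 change -3.64, SE 0.49, edgeR adjusted p 2.41e-05). Nes, the intermediate filament nestin, went from 464 and 681 CPM to 195 and 58.9 CPM (-2.43, adjusted p 0.000164), and did not pass without E13 plate 2 (-1.52, adjusted p 0.0674). Sox9, a factor of radial glia and astrocytes, went from 446 and 398 CPM to 34.4 and 145 CPM (-1.96, adjusted p 0.00102) and stood at 666 CPM at E18. Gli3, Ptprz1 and Prom1 were lower by -1.28 to -1.62. Ptprz1 and Prom1 did not pass without E13 plate 2 (adjusted p 0.0846 and 0.170), nor did Gli3 without E11 plate 2 (0.106) or E13 plate 1 (0.0527), and Prom1 failed without any E11 or E13 plate. Fabp7 (a lipid-binding protein of radial glia) and Slc1a3 (a glutamate transporter) rose, by 1.09 (adjusted p 0.0123) and 1.35 (adjusted p 0.0285). Fabp7 did not pass without E13 plate 1 (adjusted p 0.109), nor Slc1a3 without E11 plate 2 (0.165) or E13 plate 2 (0.98, adjusted p 0.389). Sox2 was at 393 and 618 CPM at E11 and 871 and 766 CPM at E13, which did not pass (adjusted p 0.131).

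NFI factors and other genes of later progenitors rose. Of 12 genes of a gliogenic list tested in the core wells, 6 were higher and 2 lower. The 2 were Sox9 and Ptprz1, which are also on the radial glia list and were counted there as lower. Nfix stood at 17.8 and 10.5 CPM at E11, 123 at E12, 218 and 338 at E13 and 916 at E18. No E13 plate overlapped an E11 plate, and the rise was 4.15 (SE 0.51, edgeR adjusted p 5.95e-06). It was seen in 1 of 16 and 1 of 7 core wells at E11, 6 of 10 at E12, 3 of 7 and 13 of 16 at E13 and 9 of 9 at E18.

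Nfia stood at 620 and 199 CPM at E11 and at 2282 and 1523 CPM at E13 (2.08, SE 0.32, adjusted p 9.05e-05), and Nfib at 495 and 230 against 1158 and 1186 CPM (1.60, adjusted p 0.000531). Sparc, a matrix protein also made by vessels and mesenchyme, was at 120 and 62.9 against 516 and 471 CPM (2.28). The list median was 0.58 in core wells and -0.04 without E13 plate 2, where 5 of 12 genes were higher and 1 lower. Summed over the list, core wells held 2856, 1981, 4834, 5889, 5133, 6022 and 11206 CPM from E11 plate 1 to E18 plate 1, E15 included. Aqp4, a water channel of mature astrocytes, had 0 counts in cycling wells of all 6 plates.

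A list chosen for genes high in young stem cells and low later is here called the timing genes. Of 10 tested in the core wells, 5 were lower and 1 higher, and without E13 plate 2 only 1 was lower and 0 higher. Without E11 plate 1 or E11 plate 2, 2 were lower, and without E13 plate 1, 3. Crabp1, which binds retinoic acid, stood at 683 and 398 CPM at E11, 64.9 at E12, 0 on both E13 plates and 13.9 at E18, at least 61.6-fold lower at E13 (3 counts over the group as the limit, edgeR adjusted p 1.16e-08). In the other kept wells it went from 4694 and 3181 CPM at E11 to 12.8 and 6.58 CPM at E13, so it was lower there too. At E11 Crabp1 thus stood higher in the other wells, 95.9% and 97.0% of them neuron-high, than in the core wells. Igf2bp1 and Igf2bp3, RNA-binding proteins of fetal cells, went from 687 and 618 to 333 and 342 CPM (-0.96) and from 567 and 744 to 333 and 267 CPM (-1.15). Neither passed without E13 plate 2 (adjusted p 0.185 and 0.211) or E11 plate 2 (0.0567 and 0.113), and Igf2bp1 also failed without E11 plate 1 (0.216) and E13 plate 1 (0.111). Hmga2 did not pass, at 268 and 618 CPM at E11 and 436 and 306 CPM at E13 (adjusted p 0.789).

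Of 15 FGF and SHH genes tested in the core wells, 4 were higher and 3 lower, and without E13 plate 2 the counts were 1 and 2. Spry1, an inhibitor that FGF signalling induces, stood at 4.46 and 0 CPM at E11, 115 at E12, 745 and 448 at E13 and 125 at E18. It had 1 count at E11 and 179 at E13, a ratio of 167 (29.6 to 6644, edgeR adjusted p 1.16e-08), and it passed without any 1 plate. It was seen in 5 of 7 and 11 of 16 core wells at E13. In other kept wells Spry1 was at 34.0 and 76.5 CPM at E13.

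Fgf8, the ligand, had 0 counts in core wells of both E11 plates, 7.21 CPM at E12, 138 and 130 CPM at E13 and 27.8 CPM at E18. That is at least 14.2-fold higher at E13 (adjusted p 0.00115), in 3 of 7 and 8 of 16 wells, and it did not pass without E13 plate 2 (adjusted p 0.156). Spry2 (a ratio of 19.6, 5.11 to 167) and Dusp6 (a log2 change of 3.25), further FGF targets, were higher. Both lost their call without that plate, which leaves 1 plate at E13 (log2 changes 4.61 and 3.53). Fgfr3, a receptor, fell from 156 and 209 to 11.5 and 31.4 CPM (-2.75, adjusted p 0.00172). Shh, the ventral midline ligand, had all its counts in 2 of the 16 core wells of E11 plate 1, and did not pass without E13 plate 2 (adjusted p 0.266).

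Among 15 dorsal midline and Wnt genes, 3 were higher and 1 lower, and without E13 plate 2, 2 and 1. Rspo3, a secreted amplifier of Wnt signalling, stood at 353 and 31.4 CPM at E11, 923 at E12, 1640 and 1429 at E13 and 1332 at E18 (2.74, SE 0.39, edgeR adjusted p 4.06e-05). The 2 E11 plates lay far apart and both were below the E13 plates. Axin2, a Wnt target, was at 62.5 and 62.9 against 229 and 192 CPM (1.70, adjusted p 0.0113), and did not pass without E13 plate 2 (adjusted p 0.0722) or E11 plate 1 (0.0652). Zic1 of the habenula list, a zinc finger factor of the dorsal midline, rose by 1.49. Wnt8b had 24 counts at E11, with 0 on E11 plate 2, further counts at E12, and 1 count at E13. Its call, lower at E13, thus rests on E11 plate 1. Without that plate the call was lost and the log2 change turned to 2.01. It did not pass without E12 (edgeR adjusted p 0.161) or without E13 plate 2 (log2 change -6.10). Barhl2 and Six3 of the thalamus list rose by 1.57 and 3.29, Barhl2 not passing without E11 plate 1 or E13 plate 1 (adjusted p 0.0982 and 0.0976), and Tcf7l2 fell from 1781 and 2242 to 654 and 687 CPM (-1.58).

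Cell cycle transcripts of the chosen wells differed between the 2 stages. Whether the mix of cycle phases among these wells differed was not tested. D cyclins, which carry growth signals into G1, were lower at E13. Ccnd2 stood at 2334 and 2263 CPM at E11, 981 at E12, 848 and 679 at E13 and 361 at E18, with no overlap between E11 and later plates (-1.62, SE 0.24, edgeR adjusted p 5.76e-05), and Ccnd1 went from 482 and 649 to 206 and 259 CPM (-1.21, adjusted p 0.0127). Ccnd1 did not pass without E13 plate 2 (adjusted p 0.0789), E13 plate 1 (0.0575) or E11 plate 2 (0.115).

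Of 35 S phase genes tested in the core wells, 7 were lower and 0 higher, and 33 of the 35 had a log2 change below 0 (median -1.14). Hells, a chromatin remodeller of replicating DNA, went from 138 and 272 CPM to 0 and 23.6 CPM (-3.44, SE 0.64, adjusted p 0.000824). Dtl, Pola1, Casp8ap2, Mcm6, Mcm7 and Rrm2 also fell, by -2.97 to -1.07, each losing its call in 1 to 4 of 6 left-out fits. Pola1, Mcm6, Mcm7 and Rrm2 lost theirs without E13 plate 2 (adjusted p 0.0700 to 0.125), Dtl without E11 plate 2 (0.228) and Casp8ap2 without E11 plate 1 (0.358), E12 (0.0539) or E13 plate 1 (0.101). Without E13 plate 2, 4 of 32 were lower, with a median of -1.69, and without E11 plate 1, E11 plate 2 or E13 plate 1, 4, 3 and 4 were.

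No G2 and mitosis gene passed as lower. Of 63 G2 and mitosis genes outside the rule, 3 were higher (4.76%, against 2.72% of all genes) and 0 lower in the core wells, 52 lay above 0, and the median was 0.41. Without E13 plate 2, 1 of 58 was higher. Over all cycling wells 1 of 67 was higher, against 3.24% of all genes, and the median was 0.00. Hmgb2 stood at 290 and 293 CPM at E11 and 1020 and 789 CPM at E13 (1.60, SE 0.27, edgeR adjusted p 0.000283), Cdc20 at 179 and 157 against 355 and 369 CPM (1.09, adjusted p 0.0397), and Arl6ip1 at 647 and 807 against 1353 and 1476 CPM (0.97). Cdc20 and Arl6ip1 did not pass without E13 plate 2 (adjusted p 0.229 and 0.136) or E11 plate 1 (0.108 and 0.0937), nor Cdc20 without E11 plate 2 (0.197). The rule selects on mitotic transcripts at both stages, and so limits how far these could differ. Summed, the list held 13545 and 13401 CPM at E11 and 18510 and 17900 at E13, and the S phase list 5369 and 6233 against 2258 and 2948 CPM. Among histone genes, the replication histone Hist1h2ap fell from 2923 and 1498 to 378 and 640 CPM (-2.08), while the replication-independent H2afz went from 107 and 94.3 to 275 and 302 CPM (adjusted p 0.0095; 0.133 without E13 plate 2) and H3f3a rose by 1.48.

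**Figure D4:**
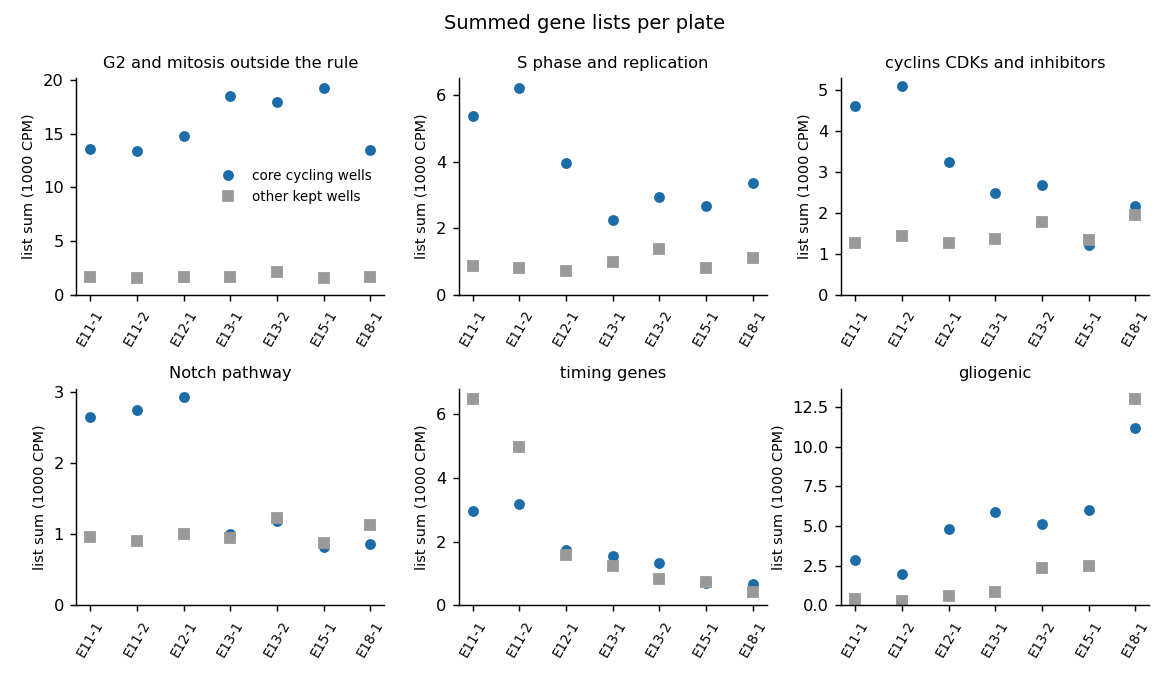
Summed level of 6 gene lists per plate, in units of 1000 CPM, in core cycling wells (circles) and all other kept wells (squares), from E11 plate 1 to E18 plate 1. The S phase and cyclin sums of core wells are highest at E11, the Notch sum is highest at E12 at 2939 CPM, the G2 and mitosis sum is 13401 to 19253 CPM throughout, and the gliogenic sum reaches 11206 CPM at E18.

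**Figure D5:**
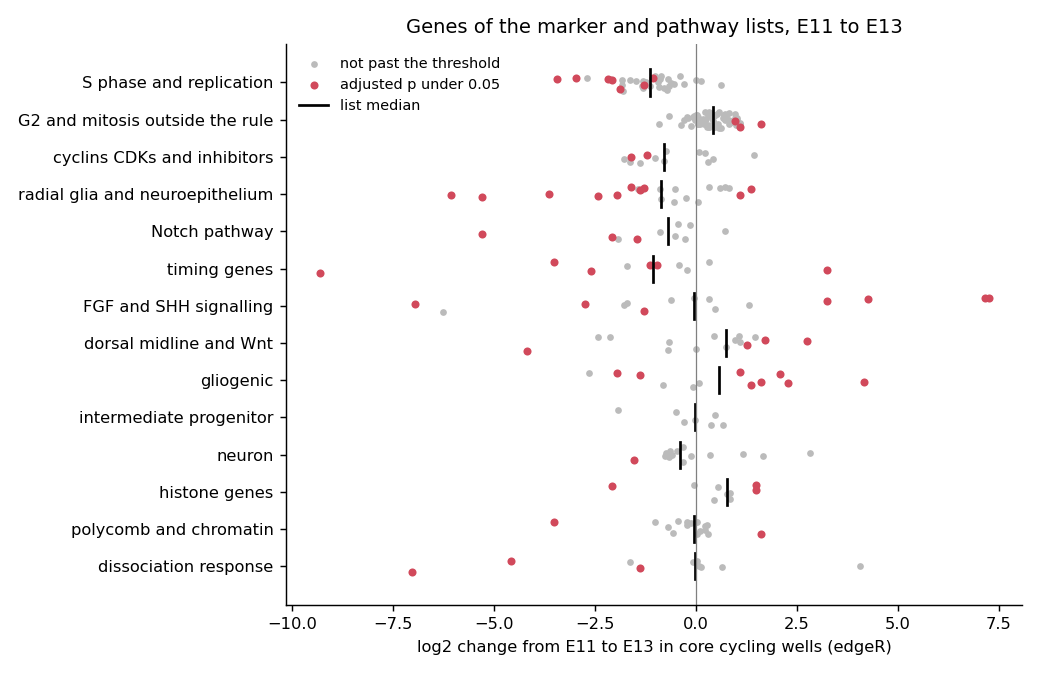
Log2 change from E11 to E13 in core cycling wells for each gene of 14 lists (points; filled red where the edgeR adjusted p is under 0.05) with the list median (bar). The S phase median is -1.14 and the G2 and mitosis median 0.41.

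Some handling genes moved too: of 10 dissociation response genes tested, 3 were lower at E13 (30.0%, against 3.37% of all genes) and 0 higher. Fos was at 120 and 105 CPM in core wells at E11 and at 0 on both E13 plates (at least 12.8-fold lower, edgeR adjusted p 0.00132), and Fosb and Jun were lower as well, while without E13 plate 2 the count was 0 of 9 (adjusted p 0.0707 for Fos). Summed over the list, core wells held 1294 and 1257 CPM at E11 and 1032 and 879 CPM at E13. Ttr and Rgs5 passed in the core wells as higher at E13, at 970 and 133 CPM on E13 plate 2 against 0 and 11.5 CPM on E13 plate 1. Rgs5 did not pass without E11 plate 1 (adjusted p 0.122), and without E13 plate 2 neither was tested. The vascular list summed to 71.4 and 52.3 CPM in core wells at E11 and 138 and 440 CPM at E13. The part of either in the changes above was not tested.

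With all cycling wells of these 6 plates the largest rises from E11 to E13 were those of other lineages. Ttr, Rgs5, Abcc9, Epas1 and Kcnj8, the last 4 genes of pericytes and endothelium, had 0 counts at E11 and were at least 536-, 75.4-, 59.0-, 26.9- and 23.9-fold higher. At E13 Ttr stood at 0 and 8979 CPM, so its rise is that of plate 2 alone, while Abcc9 was at 472 and 517 CPM on both. Of 16 vascular and mesenchyme genes 8 were higher, and of 5 choroid plexus genes 4, against 3.24% of all genes. Without E13 plate 2 these were 6 of 15 and 0 of 2. The largest falls were Crabp1, Shh, Meis2 (a homeobox factor at 12.2 and 224 CPM at E11), Hes5 and Pax3. Meis2 did not pass without E11 plate 2 (-2.85, adjusted p 0.474), nor Shh without E13 plate 2 (adjusted p 0.0676).

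A trend over embryonic day was tested from E11 to E18. Over the 6 plates, 6 of 5569 genes passed (0.108%; 5 higher, 0.0898%, and 1 lower, 0.018%, with day), and 22 of 3634 in the core wells (0.605%; 18 higher, 0.495%, and 4 lower, 0.11%), with 3 in both. The other 3 of the 6 were not tested in the core wells. Later days of this fit rest on E18 plate 1 alone. Hes5 fell by 2.53 per day on the log2 scale in all cycling wells (SE 0.33, edgeR adjusted p 0.022) and by 2.21 in the core (adjusted p 0.0219). Its fall was not even over days: core wells held 721 CPM at E12 and 11.5 and 27.5 CPM at E13. The slope also rests on 0 counts at E18, which allow up to 41.6 CPM in the core, so its size is not a measured fold. Ppp2r2b, a phosphatase subunit, rose by 0.67 per day (adjusted p 0.0167), from 12.2 and 44.7 CPM at E11 to 759 CPM at E18, and Cdh7, a cadherin, by 0.54, from 77.2 and 53.7 to 782 CPM. Apoe, a lipid carrier of glia, rose by 0.79 in all cycling wells, and Dnah7c, a dynein of motile cilia, by 0.56. When E11 and E12 were set against E13 and E18 instead, Apoe, Ppp2r2b, Cdh7 and Dnah7c did not pass (edgeR adjusted p 0.253 to 0.332). In the core, Nfib rose by 0.44 per day (adjusted p 0.0228), and Crabp1 and Notch3 were lower with day. Nfib did not pass without E11 plate 1 (adjusted p 0.0776) or E12 (0.0711), Crabp1 passed in 0 of 3 left-out fits and Notch3 in 0 of 6. DESeq2 called 21 genes with all cycling wells. The edgeR counts were 0 without E11 plate 1 (237 at an unadjusted p under 0.05) and 47 without E18 plate 1, and in the core wells 8 without E12 and 93 without E18 plate 1, and Ppp2r2b, Cdh7 and Dnah7c did not pass without E18 plate 1 (adjusted p 0.405, 0.433 and 0.700). Without E11 plate 1, Apoe, Ppp2r2b and Cdh7 did not pass (0.112, 0.0726 and 0.0726), nor did Dnah7c without E11 plate 2 (0.0877) or E13 plate 1 (0.0787). Over all cycling wells Hes5 missed the threshold without E11 plate 1 (adjusted p 0.128), E11 plate 2 (0.0607), E13 plate 1 (0.0787) or E13 plate 2 (0.134), while in the core it passed without any 1 plate.

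Whether the change with day differed between cycling and other wells of the same plates was tested with 2 sums per plate. Neuron-high wells made up 95.9% and 97.0% of the other wells at E11, 96.0% at E12 and 87.5% and 62.6% at E13. On E18 plate 1 they made up 18.4%, and the part of this change in the slopes was not tested. The slope differed for 100 of 13109 genes (0.763%; 20 higher, 0.153%, and 80 lower, 0.61%, in cycling wells). Without 1 plate the count ran from 20 (without E11 plate 1) to 198 (without E13 plate 2). Of the radial glia list 12 of 23 genes had a lower slope and 0 a higher one (median -0.67 per day against -0.02 over all genes). With 1 plate left out, 5 were lower without E11 plate 1, 7 without E11 plate 2, 12 without E12, 9 without E13 plate 1, 15 without E13 plate 2 and 5 without E18 plate 1, and Hes5 alone of the 12 passed each time. Sox9, for example, was at 406 and 340 CPM in cycling wells at E11 and 552 CPM at E18, while in the other wells it went from 18.1 and 18.2 to 737 CPM, a slope difference of -0.67 per day (SE 0.09, edgeR adjusted p 0.00364). Fabp7 did the same, from 12.0 and 14.2 to 1337 CPM in the other wells against 459 and 394 to 1151 CPM in cycling wells (-0.72, adjusted p 0.00114). Neither passed without E18 plate 1 (adjusted p 0.128 for Sox9 and 0.205 for Fabp7). On E18 plate 1 Sox9 and Fabp7 thus stood higher in the other wells than in the cycling wells. Other progenitor genes were mixed there. Hes1 was also higher in the other wells (88.9 against 57.5 CPM), while Sox2 (373 against 702 CPM) and Id3 (178 against 230 CPM) were lower.

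Several of the 5 largest differences each way came with single wells. Csf1r, C1qc and C1qb, of microglia, had a higher slope in cycling wells, with 667, 391 and 345 CPM on E18 plate 1, where 1 cycling well was high in microglia genes. Pld5 stood at 172 and 165 CPM in the other wells at E11 and at 17.8 CPM at E18, against 24.4, 0 and 57.5 CPM in cycling wells, and Cntnap5a reached 92.0 CPM in cycling wells at E18 from 10.5 CPM or less before. Cd93 and Plvap, of endothelium, stood at 1053 and 380 CPM at E12, where 1 vascular well holds 101757 counts. Hes5 (-2.34 per day), Neurog2 (-2.08) and Ephb4 (-2.02) were the others with a lower slope. Without E18 plate 1 the 3 microglia genes, Pld5, Cntnap5a, Neurog2 and Ephb4 did not pass (adjusted p 0.0709 to 0.899), and without E12 neither Cd93 nor Plvap did (0.554 and 0.237). All of these but Cd93 and Plvap also failed without E11 plate 1 (0.0558 to 0.286). With E11 and E12 set against E13 and E18 in place of day, 3 of the 10 largest differences passed. Among wells below all 4 lineage levels, where 4 and 8 other wells remain on the E11 plates, 2 of 3786 genes passed (0.0528%; 2 higher and 0 lower), with 0 of 22 radial glia genes. The 2 were Pclaf and Ccna2, of the cell cycle, the kind of gene on which the wells were chosen. Neither passed without E11 plate 1 (adjusted p 0.215 for both), E11 plate 2 (0.0878), E12 (0.164) or E18 plate 1 (0.477 and 0.209).

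From E13 to E18, a contrast added after seeing that E15 holds 2 cycling wells, 6 gliogenic genes and Pax3 rose in core cycling wells, and Hmga2 and Spry1 were the list genes that fell. It sets 2 plates against 1, so the spread at E18 was not measured, and the fit assumes that the lone plate varies like those of the other stages. Of 7308 genes 101 passed (1.38%; 73 higher, 0.999%, and 28 lower, 0.383%), and of 4924 in the core wells 76 (1.54%; 69 higher, 1.4%, and 7 lower, 0.142%), with 55 in both. Of the 101, 21 were not tested in the core wells. DESeq2 called 15 of the 7308. With 1 plate left out edgeR called from 100 (without E12) to 214 (without E13 plate 1), and in the core wells from 51 (without E13 plate 2) to 133 (without E11 plate 1). Of 12 gliogenic genes in the core, 6 were higher and 0 lower (median 2.11 against -0.05 over all genes). Of the 12 list genes called in the core, 8 passed in each of 5 left-out fits. Without E13 plate 2, which leaves 1 plate on each side, 4 gliogenic genes were higher.

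Apoe was at 11.5 and 31.4 CPM in core wells at E13 and 708 CPM at E18, in 8 of 9 wells (4.86, SE 0.56, edgeR adjusted p 2.34e-06). Aldoc, a glycolytic enzyme of astrocytes, had 1 count at E13 and 21 at E18, in 6 of 9 wells. Sox9 rose by 2.72, Ptprz1 by 2.45, Pax6 by 1.92, Nfix by 1.78 and Nfib by 1.48. Nfib and Aldoc did not pass without E13 plate 2 (adjusted p 0.0907 and 0.169). Pax3 rose from 1 count to 35, a ratio of 166 (27.9 to 6745, adjusted p 8.85e-07). Apoe was also at 1625 CPM in the other wells of E18 plate 1, and Ttr had a count in 52.4% of its wells outside the other lineages. The part of free RNA was not tested.

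Hmga2 stood at 436 and 306 CPM in core wells at E13 and at 0 at E18, at least 8.91-fold lower (edgeR adjusted p 0.00227), and 14 of 16, 5 of 7, 8 of 10, 4 of 7 and 11 of 16 core wells had a count from E11 to E13 against 0 of 9 at E18. Spry1 fell by 2.06 to 125 CPM, and did not pass without E13 plate 1 (adjusted p 0.0838). Nectin3, an adhesion protein, went from 734 and 510 to 13.9 CPM (-5.23, adjusted p 8.88e-05), and Mest, an imprinted gene, fell by 2.26 (adjusted p 0.0600 without E13 plate 2). No S phase gene and no G2 and mitosis gene was called between E13 and E18. Few of all genes tested were, so a lack of change cannot be read from this. The replication histone Hist1h2ap went from 378 and 640 to 1346 CPM (1.47, edgeR adjusted p 0.0323). Syt1, a synaptic vesicle protein, went from 91.7 and 55.0 to 291 CPM (2.25, adjusted p 0.0314; 0.271 without E13 plate 2).

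Col8a1 (a collagen) and Esm1 (a secreted proteoglycan of vessels) had 0 counts in core wells at E13 and were at least 79.1- and 52.2-fold higher at E18, seen in 3 and 4 of 9 wells. In all cycling wells, Fcrls and C1qa of microglia were at least 68.9- and 56.9-fold higher and Csf1r rose from 2 counts to 58, with 1 microglia-high well on the plate. Fcrls and C1qa did not pass without E13 plate 2 (adjusted p 0.0897 and 0.195). Igf2, Abcc9, H19, Cnn2 and Notch3 had 0 counts at E18 and were at least 48.7-, 14.3-, 14.1-, 7.05- and 7.11-fold lower, and none of those tested in the core wells passed there. Igf2 and H19 are imprinted growth genes, and both stood high on E13 plate 2 with its vascular wells.

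A second set at E18, from C57BL/6 mice, held cycling wells as well: 12 of 333 on the plate of both sides, 11 of 283 and 1 of 54 on the left plates, and 4 of 279 and 6 of 133 on the right plates. Of these 34 wells, 26 lay below all 4 lineage levels, with a median marker sum of 2029 CPM, and 8 were neuron-high, with 340 CPM. Strain and set differ together, so these shares are given beside those above with no comparison.

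Genes that overlap another annotated gene are uncertain, since strand use in counting is not given. Of those named with values this applies to Abcc9, Adgrv1, Axin2, Cacna2d1, Ccna2, Ccnd1, Ccnd2, Cdc20, Cdca8, Cenpf, Cntnap5a, Csf1r, Ect2, Epas1, Ephb4, Esm1, Fgfr3, Gli3, H19, H3f3a, Hes5, Hmga2, Id4, Igf2, Igf2bp1, Igf2bp3, Jun, Kcnma1, Knstrn, Mapt, Mcm7, Mest, Mgat4c, Mki67, Nfia, Nfib, Nfix, Notch3, Nrarp, Nusap1, Pax6, Pclaf, Pld5, Plvap, Pola1, Ppp2r2b, Prc1, Prom1, Rspo3, Shh, Six3, Slc1a3, Snap91, Sox2, Spry1, St6galnac5, Syt1, Tcf7l2, Top2a, Tpx2, Ube2c, Zfp36l1 and Zic1. Hist1h2ap belongs to a family of near-identical histone genes and is uncertain for that reason.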

How the data were processed

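The authors deposited 1 table of genes by wells per set, with single-cell CelSeq2 values for plates of up to 384 wells. The deposited values are expected counts: unique molecular identifiers (UMIs) corrected for collisions among 4096 possible tags, since inverting that correction gave whole numbers for 100.0% of values (tolerance 1e-06) against 46.1% as deposited. The submitters' processing notes name STAR 2.5.3a, Trim Galore and the mm10 build. No counting program or annotation is given in the sources used here.

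The plate was the replicate. Counts of the cycling wells were summed per plate and rounded, and plates with at least 5 such wells entered 1 fit with edgeR 4.0.16 in R 4.3.3 (filterByExpr, TMM, quasi-likelihood test, Benjamini-Hochberg over all genes tested, threshold 0.05). The planned test assumed raw counts, and the same test was kept on the rounded expected counts. The E11 to E13 fit left 2 residual degrees of freedom, and 1 with an E11 or E13 plate left out. Its p-values thus rest largely on an estimate of spread shared across genes. SE values of edgeR are the size of the log2 change divided by the square root of the F statistic. Depth ran from 86913 to 667115 summed counts per plate, so that a count of 0 allows 4.50 to 34.5 CPM (3 counts). The fits were tested on simulated data. Pairing was checked by the correlation of same-numbered plates' deviations (0.038 over 2684 genes), so replicate numbers were not used to pair plates.

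The cycling wells and the gene lists were chosen with earlier results of these data known. Genes are named by list, or as the 5 largest changes each way (10 for the trend) past the threshold at a mean of at least 20 CPM, and for cycling against other wells the 20 highest and 10 lowest ratios at 50 CPM. The core wells, added after seeing the data, were ranked in the same way, but their genes are named above mainly by list. Large core changes outside the lists, such as the fall of Lama1 and the rise of Kitl from E11 to E13, are mostly not described. Alternatives were DESeq2 1.42.0, RLE scaling, no filter on low counts, a replicate block, other marker numbers, thinned or deeper wells, and each plate left out. Trends were also run as E11 and E12 against E13 and E18. Doublets were not called. E13 to E15 and E15 to E18 were not run because the E15 plates hold 2 and 0 cycling wells. Gene positions are from GENCODE (GRCm38), which held 37938 of 37994 gene IDs. Results that need certain withheld genes are not reported here.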

Additional observations from a re-analysis of the deposited data

Results flagged for a closer look

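The slope with embryonic day differed between cycling and other wells of the same plates for 100 of 13109 genes (0.763%). The difference itself was tested, in edgeR. Of these genes, 80 had a lower slope in cycling wells. With 1 plate left out the count ran from 20 (without E11 plate 1) to 198 (without E13 plate 2). Among wells below all the lineage levels, 2 of 3786 genes passed, with 0 lower. Neuron-high wells made up 95.9% and 97.0% of the other wells at E11 and 18.4% on E18 plate 1. The part of this change in the slopes was not tested.

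On 1 adult plate, which enters no comparison, 16 of 342 kept wells (4.68%, exact 95% interval 2.70% to 7.49%) met the marker rule, with 148 to 1477 CPM of the 7 markers and a median of 698 CPM. The other adult plate held 0 of 56. The P4 and P7 plates held 1 of 287, 3 of 322, 2 of 326 and 1 of 294.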

How the results depend on the processing

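The count of genes changed from E11 to E13 was 52 with DESeq2 and ran from 253 to 648 with 1 plate left out, and from 118 to 332 in core wells (244 and 210 without E11 plates 1 and 2). The trend count was 21 with DESeq2, 222 with no filter on low counts, 13 at 3 markers, 16 at 5 markers, 13 at 3000 UMIs, 3 without wells above 3 times the plate median, 22 in core wells and 1 at 10 wells a plate, and ran from 0 to 47 with 1 plate left out and from 8 to 93 in core wells (17 without E13 plate 2). The count of slope differences was 354 with no filter, 58 at 3 markers, 245 at 3000 UMIs, 2 in core wells, 212 at 1000 CPM of markers and 16 at 10 wells a plate, and ran from 20 to 198 and, in core wells, from 0 to 3. The E13 to E18 count was 15 with DESeq2, 160 with no filter, 63 without wells above 3 times the plate median, 158 at 1000 CPM of markers and 156 with the plates of those stages alone, and ran from 100 to 214 and, in core wells, from 51 to 133. The cause of these shifts was not tested. Stage shares with 1 plate left out ran from 2.32% to 5.50% at E11, 5.88% to 27.7% at E13, 0% to 1.06% at E15 and 0% to 4.12% at E18. With 1 CPM added, the median log2 ratio of cycling to other wells was 2.08 for S phase genes and 4.71 for G2 and mitosis genes. Ttr had 0 counts at E11 and on E13 plate 1, so without E13 plate 2 its change from E11 to E13 was 0. Among the genes named as the largest changes over all cycling wells, 580 settings kept the call and 136 lost it. Some of these settings, such as RLE scaling, differ little from the main fit. The list genes named in core wells are not in this count, and their lost calls are given with them. E11 to E13 and E13 to E18 could not be fitted at 10 wells a plate, nor E13 to E18 without E18 plate 1.

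With the replicate number as a block, 193 genes passed from E11 to E13, 0 with the trend and 14 from E13 to E18. The numbers share no stated source, so this is no test of pairing.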
